A study of Caenorhabditis elegans with 18 samples.

Results

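The collagen genes of Caenorhabditis elegans whose WormBase names start with col- were followed through RNA sequencing libraries of whole N2 hermaphrodites (N2 is the wild-type laboratory strain). All 156 such genes among the 46748 genes counted were taken, whatever their level. Worms of the M05B5.5 groups received the RNAi plasmid against hlh-2, a basic helix-loop-helix transcription factor, and were aged 5 days or 1 day. Worms of the T14F9.5 groups received the plasmid against lin-32, another factor of that family, at the same ages. Worms of the L4440 groups received the empty RNAi vector at the same ages and are the controls. Each of the 6 groups holds 3 libraries, 18 in all, with 27024193 to 43016293 counts a library. Separate cultures for the libraries of a group are not stated in the labels, and the p-values then reflect only how far these samples differ, which may be technical.

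The cuticle of the worm is an extracellular coat made largely of small collagens that the epidermis secretes. It is rebuilt at every moult, and each stage uses its own selection from the large col- family. At the last moult the heterochronic pathway, ending in the zinc finger factor LIN-29, switches on adult collagens such as col-19, while larval collagens go down. Prolyl hydroxylases, proteases and a peroxidase process and cross-link the chains. Adults do not moult.

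A few facts of the libraries bear on all values. The hlh-2 transcript stood at 12.5 to 31.1 CPM (counts scaled to a common library size) in the M05B5.5 libraries of day 5, against 53.8 to 59.3 CPM in the L4440 libraries of that age. At day 1 it stood at 11.4 to 12.7 CPM in M05B5.5, against 23.7 to 53.9 CPM in L4440. No loss of the lin-32 transcript was seen in the libraries labelled T14F9.5, which held 1.06 to 5.29 CPM at day 5 against 0.234 to 0.952 CPM in L4440, and 1.96 to 2.45 CPM at day 1 against 1.74 to 2.57 CPM. Below, T14F9.5 therefore names libraries by their label only. Within each day-5 group, replicate 1 stood apart from replicates 2 and 3, which are called the later day-5 libraries here, and lay nearer to day 1 in the abundant collagens. A shared index and lane is given in the labels for T14F9.5 day-1 replicate 2 and for L4440 day-1 replicate 1, and whether either holds reads of the other was not tested. L4440 day-1 replicate 2 stood apart as well. It held the highest value of 39 of the 97 col- genes tested, 40.2%, against 30.2% of all genes tested. Some results, chiefly counts of calls with age, are also given without these libraries, and others are not. Yolk protein genes, made in the intestine of adult hermaphrodites, summed to 26800 to 67500 CPM over all libraries.

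The col- genes were spread over all 6 chromosomes, with 41 on chromosome IV, 31 on V, 27 on X, 24 on II, 21 on I and 12 on III. Their exons covered 465 to 2960 bases, with a median of 1020. A few of them made up most of the family's RNA. On the scale that allows genes to be compared (CPM per kilobase of exon), the 10 most abundant averaged 359 to 716 over all libraries. In falling order they were col-106, col-181, col-140, col-119, col-122, col-8, col-95, col-184, col-178 and col-143. These 10 held 65.5% to 78.6% of the summed CPM of all 156 genes in each library. By mean CPM, 19 genes stood at 100 or more, 7 at 10 to 100, 30 at 1 to 10 and 100 under 1. A filter on low counts kept 97 for testing, and the other 59 never exceeded 34 counts in a library, though none was at 0 in all libraries.

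The family as a whole was lower at day 5, but not evenly over the libraries. The 156 genes summed to 8440, 1458 and 2153 CPM in the M05B5.5 libraries of day 5, against 9426, 9848 and 10213 CPM at day 1. They summed to 6062, 1756 and 1230 CPM in T14F9.5 at day 5, against 9683, 12495 and 10205 CPM at day 1. They summed to 7524, 1627 and 2095 CPM in L4440 at day 5, against 10272, 18968 and 8481 CPM at day 1. No day-5 library reached the lowest day-1 library of its plasmid. The first value of each day-5 group was the high one, at 0.859 (M05B5.5), 0.562 (T14F9.5) and 0.598 (L4440) times the day-1 mean. The mean of the later day-5 libraries was 5.44-fold (M05B5.5), 7.23-fold (T14F9.5) and 6.76-fold (L4440) below the day-1 mean. The L4440 day-1 mean includes replicate 2, the highest of its group at 18968 CPM. The order of the plasmids was not tested without that library. In RNA of whole worms, fewer epidermal cells and less RNA in each cannot be told apart.

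**Figure D1:**
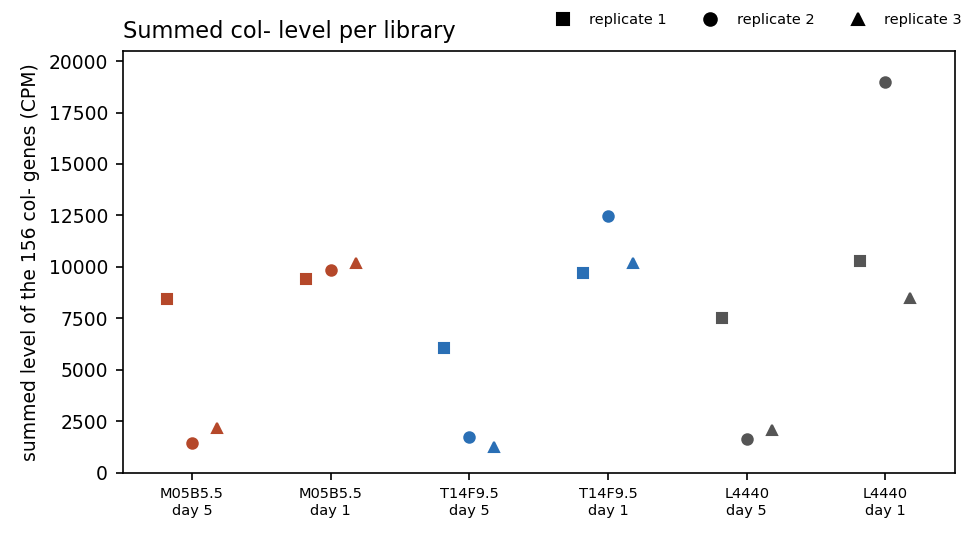
Summed level of the 156 col- genes in CPM (vertical axis) in each library, by plasmid and age; squares, circles and triangles are replicates 1, 2 and 3. The later day-5 libraries (circles and triangles) lie between 1230 and 2153 CPM, the first day-5 libraries (squares) between 6062 and 8440 CPM, and the day-1 libraries between 8481 and 18968 CPM.

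Genes that mark other tissues did not all move the same way. Summed epidermal genes that are not collagens, such as the transcription factors lin-26 and elt-3 and the junction gene ajm-1, stood at 393 to 449 CPM in the 6 later day-5 libraries. They stood at 229 to 510 CPM at day 1, so the ranges overlapped. All 10 genes of that list were tested: without the first day-5 libraries 2 rose and 2 fell in M05B5.5, none rose and 2 fell in T14F9.5, and 2 rose and 2 fell in L4440. These counts stand against 20.4%, 17.9% and 30.1% of all genes called. Body wall muscle genes summed to 544 to 731 CPM in the later day-5 libraries and to 1000 to 1820 CPM at day 1, without overlap. Yolk genes summed to 26800 to 44900 CPM in the later day-5 libraries and to 40900 to 58800 CPM at day 1. The first day-5 libraries of M05B5.5, T14F9.5 and L4440 held 1700, 1660 and 1800 CPM of the muscle genes, inside the day-1 range, and 57200, 61000 and 67500 CPM of the yolk genes, at the top of the day-1 range or above it. They thus lay near day 1 in these tissues as well as in the abundant collagens. The part of these shifts in the collagen values was not tested.

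With all 18 libraries, 8 of the 97 col- genes tested fell with age in L4440 and none rose, by edgeR's quasi-likelihood test with Benjamini-Hochberg adjustment over 14735 genes. That is 8.25% of them, against 15.8% of all genes tested, a smaller share than the background (9.11% of all genes fell and 6.72% rose). The median log2 fold change was -0.41 over the col- genes and -0.03 over all genes. The 8 were col-53, col-126, col-106, col-34, col-153, col-118, col-124 and col-110, with adjusted p-values between 0.0355 and 0.0422. DESeq2 called 20 col- genes in that comparison (26.4% of all genes). In M05B5.5 and in T14F9.5 edgeR called no col- gene and no gene at all, 0% of those tested. At an unadjusted p under 0.05 there were 15 col- genes with age in M05B5.5 (12.9% of all genes) and 39 in T14F9.5 (10.2% of all genes), and DESeq2 called no col- gene in either (0.991% and 0.0747% of all genes). The call in L4440 rests on single libraries: it went to 0 without any one of day-1 replicates 1 and 2 and day-5 replicates 2 and 3, to 18 without day-1 replicate 3 and to 32 without day-5 replicate 1.

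Of the 8, col-106 was the most abundant. It stood at 558, 209 and 288 CPM in the L4440 libraries of day 5, against 954, 2230 and 679 CPM at day 1. All day-5 values lay below all day-1 values, and the log2 fold change was -1.87 ± 0.53 (SE; adjusted p = 0.0366). col-124 stood at 88, 36.1 and 32.9 CPM in L4440 at day 5, against 176, 290 and 135 CPM at day 1, a log2 fold change of -1.94 ± 0.59 (adjusted p = 0.0413); its exons overlap those of qns-1. col-118 stood at 5.99, 1.94 and 1.79 CPM in L4440 at day 5, against 8.9, 15.3 and 7.19 CPM at day 1, a log2 fold change of -1.69 ± 0.51 (adjusted p = 0.0408). In each of these genes the first day-5 library was the closest to day 1. In M05B5.5 and T14F9.5 the genes of lowest p that did not pass were col-183, col-68 and col-113 (higher) and col-125, col-144 and col-110 (lower) in M05B5.5, and col-97, col-14 and col-117 (higher) and col-79, col-110 and col-181 (lower) in T14F9.5. Their adjusted p-values lay between 0.303 and 0.491.

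With replicate 1 of each day-5 group left out, 43 to 54 col- genes passed in each plasmid, most of them lower at day 5. In M05B5.5, 43 of 107 genes tested were called, 2 higher and 41 lower, against 20.4% of all 14952 genes (9.78% higher and 10.6% lower). In T14F9.5, 54 were called, 16 higher and 38 lower, against 17.9% of all genes (7.56% higher and 10.3% lower), and 2 higher and 36 lower without T14F9.5 day-5 replicate 2 as well. In L4440, 49 were called, 9 higher and 40 lower, against 30.1% of all genes (12.1% higher and 18% lower). These are 40.2%, 50.5% and 45.8% of the col- genes tested, above the background share in each. Median log2 fold changes were -1.44 in M05B5.5, 0.43 in T14F9.5 and -0.3 in L4440, where the medians of all genes were -0.03, 0 and -0.04. DESeq2 on the same libraries called 48 (23.7% of all genes), 56 (21.1%) and 51 (35.2%). Of the genes called lower, 35 were called in all 3 plasmids: 85.4% of those of M05B5.5, 92.1% of those of T14F9.5 and 87.5% of those of L4440. The matching overlap over all genes called lower was not computed, so whether this overlap is particular to the col- genes was not tested.

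Calls followed level. All 19 genes with a mean of 100 CPM or more, and all 7 genes between 10 and 100 CPM, were called lower in each of the 3 plasmids without the first day-5 libraries. The log2 fold changes of the 19 ran between -7.05 and -1.52 in M05B5.5 (median -2.7), between -4.35 and -2.09 in T14F9.5 (median -2.96) and between -4.95 and -1.96 in L4440 (median -2.92). With all libraries the same 19 were lower in every plasmid, with medians of -1.46, -1.83 and -1.85, but only 2 passed, both in L4440. Of the 30 genes between 1 and 10 CPM, 11 fell and 2 rose in M05B5.5, 10 fell and 3 rose in T14F9.5, and 11 fell and 3 rose in L4440. Of the 100 genes under 1 CPM, 51 were tested. In M05B5.5 none of them rose and 4 fell, in T14F9.5 13 rose and 2 fell, and in L4440 6 rose and 3 fell. Of all genes on that fit, whatever their level, 20.4% were called in M05B5.5, 17.9% in T14F9.5 and 30.1% in L4440. With its smaller groups, the filter on low counts passed 10 col- genes that it had dropped with all 18 libraries. col-88 and col-161 were among them, and both were called higher in T14F9.5. col-88 had 28 pooled counts in the later day-5 libraries of T14F9.5 and 21 in those of L4440, against 1 each at day 1. It passed the filter through libraries where it is high, so its rise is no separate support. T14F9.5 day-5 replicate 2 weighed on the rises in T14F9.5, as described below.

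**Figure D2:**
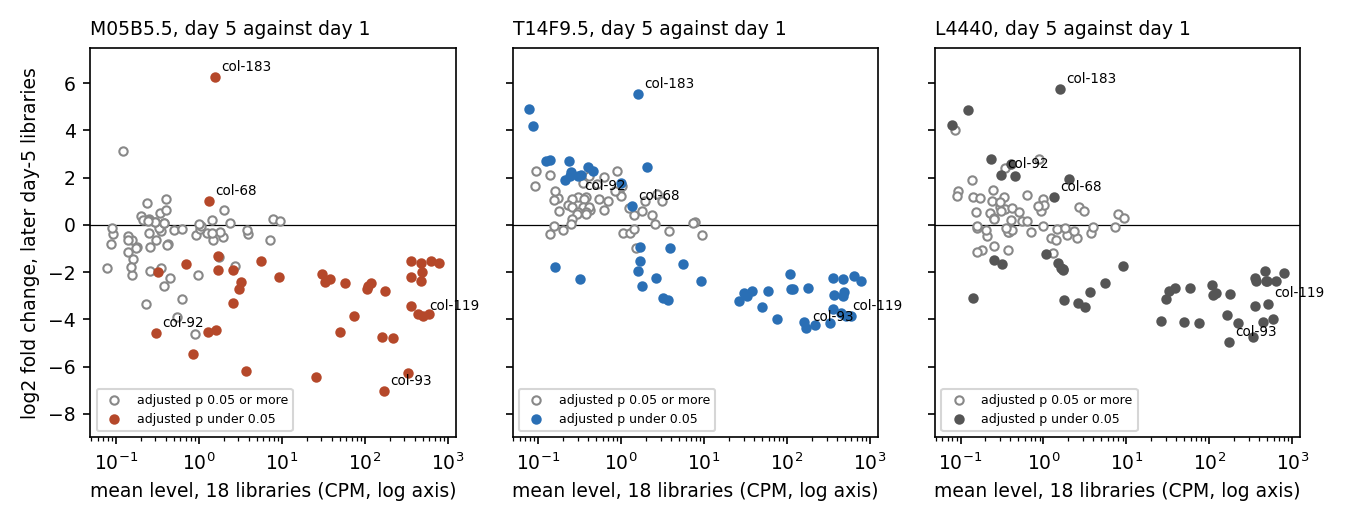
Log2 fold change of day 5 against day 1 without the first day-5 libraries (vertical axis) against the mean level over 18 libraries in CPM (horizontal log axis), 1 point a col- gene, for M05B5.5, T14F9.5 and L4440; filled points passed an adjusted p of 0.05 in edgeR. All genes above 10 CPM lie below 0 in each plasmid, and the genes below 1 CPM lie to both sides, with 13 called higher in T14F9.5 (none of them without T14F9.5 day-5 replicate 2), 6 in L4440 and none in M05B5.5.

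Adult collagens were among the genes that fell. col-19 (chromosome X, 421707 to 422691 on the plus strand, WBcel235), the standard marker of the adult cuticle, stood at 203, 32.4 and 39.3 CPM in M05B5.5 at day 5, against 244, 241 and 269 CPM at day 1. In T14F9.5 it stood at 117, 49.6 and 32.4 CPM at day 5, against 251, 276 and 259 CPM at day 1. In L4440 it stood at 162, 45.3 and 38.6 CPM at day 5, against 261, 467 and 227 CPM at day 1. No day-5 value reached a day-1 value of its plasmid. With all libraries the log2 fold change was -1.46 ± 0.67 in M05B5.5, -1.98 ± 0.68 in T14F9.5 and -1.96 ± 0.68 in L4440 (adjusted p = 0.381, 0.491 and 0.0592). Without the first libraries it was -2.81 ± 0.30, -2.68 ± 0.30 and -2.92 ± 0.30 (adjusted p = 4.22e-05, 6.65e-05 and 5.01e-05).

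col-119 (chromosome IV, 8978926 to 8979795 on the minus strand), also raised at the switch to the adult, was the fourth most abundant member per length. It stood at 623, 44 and 63.8 CPM in M05B5.5 at day 5, against 725, 788 and 853 CPM at day 1. In T14F9.5 it stood at 439, 83.7 and 39.2 CPM at day 5, against 829, 950 and 873 CPM at day 1. In L4440 it stood at 637, 68.2 and 71.8 CPM at day 5, against 600, 878 and 633 CPM at day 1. In L4440 the first day-5 library thus lay inside the day-1 range, while in M05B5.5 and T14F9.5 all day-5 values lay below. The log2 fold change without the first libraries was -3.87 ± 0.33 in M05B5.5, -3.85 ± 0.33 in T14F9.5 and -3.33 ± 0.32 in L4440 (adjusted p = 8.57e-06, 1.22e-05 and 3.21e-05). With all libraries it was -1.69, -2.24 and -1.44 and did not pass (adjusted p = 0.474, 0.491 and 0.296).

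The other adult collagens of the list hardly contributed. col-62 had 7 to 8 counts in M05B5.5 at day 5 and 9 to 15 at day 1, 6 to 19 counts in T14F9.5 at day 5 and 7 to 12 at day 1, and 5 to 22 counts in L4440 at day 5 and 7 to 17 at day 1. It passed in no comparison of age. col-7 never exceeded 6 counts in a library and was not tested. So 2 of the 3 genes tested of the 4 listed passed in each plasmid without the first libraries.

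Some abundant members outside that list had larger changes than col-19, a difference that was not tested. col-93 (chromosome III, 10984552 to 10985609 on the minus strand) stood at 204, 2.24 and 1.55 CPM in M05B5.5 at day 5, against 277, 235 and 241 CPM at day 1. In T14F9.5 it stood at 151, 20.2 and 4.39 CPM at day 5, against 252, 244 and 254 CPM at day 1. In L4440 it stood at 193, 14.4 and 6.73 CPM at day 5, against 257, 490 and 238 CPM at day 1. The later M05B5.5 libraries were the lowest of all 18. Its log2 fold change without the first libraries was -7.05 ± 0.71 in M05B5.5, the lowest of any abundant member there, -4.35 ± 0.61 in T14F9.5 and -4.95 ± 0.63 in L4440 (adjusted p = 2.95e-05, 0.000336 and 0.000175).

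col-20 (chromosome II, 4869670 to 4870791 on the minus strand) stood at 358, 6.52 and 6.4 CPM in M05B5.5 at day 5, against 488, 482 and 525 CPM at day 1. It stood at 205, 48 and 10.5 CPM in T14F9.5 at day 5, against 488, 568 and 524 CPM at day 1, and at 293, 31.8 and 16.6 CPM in L4440 at day 5, against 516, 1010 and 453 CPM at day 1. Again the later M05B5.5 libraries were the lowest, and in each plasmid the first day-5 library lay below day 1 and far above the later ones. Its log2 fold change without the first libraries was -6.27 in M05B5.5, -4.17 in T14F9.5 and -4.76 in L4440. col-133 fell in the same way, with 30.4, 0.517 and 0.259 CPM in M05B5.5 at day 5 against 39, 28.5 and 30.9 CPM at day 1.

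Not all of the most abundant members changed by as much. col-181 stood at 920, 257 and 415 CPM in M05B5.5 at day 5, against 968, 1080 and 1070 CPM at day 1, a log2 fold change of -1.63 ± 0.34 without the first library (adjusted p = 0.00505). col-122 changed by -1.61, -2.29 and -1.96 in M05B5.5, T14F9.5 and L4440 on the same fit, and col-184 by -1.55, -2.24 and -2.26. col-140 and col-8, at similar levels per length, changed by -3.78, -3.87 and -3.97 and by -3.78, -3.75 and -4.11 on the log2 scale. The 10 most abundant members all passed in all 3 plasmids on that fit. The differences between them were not tested.

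**Figure D3:**
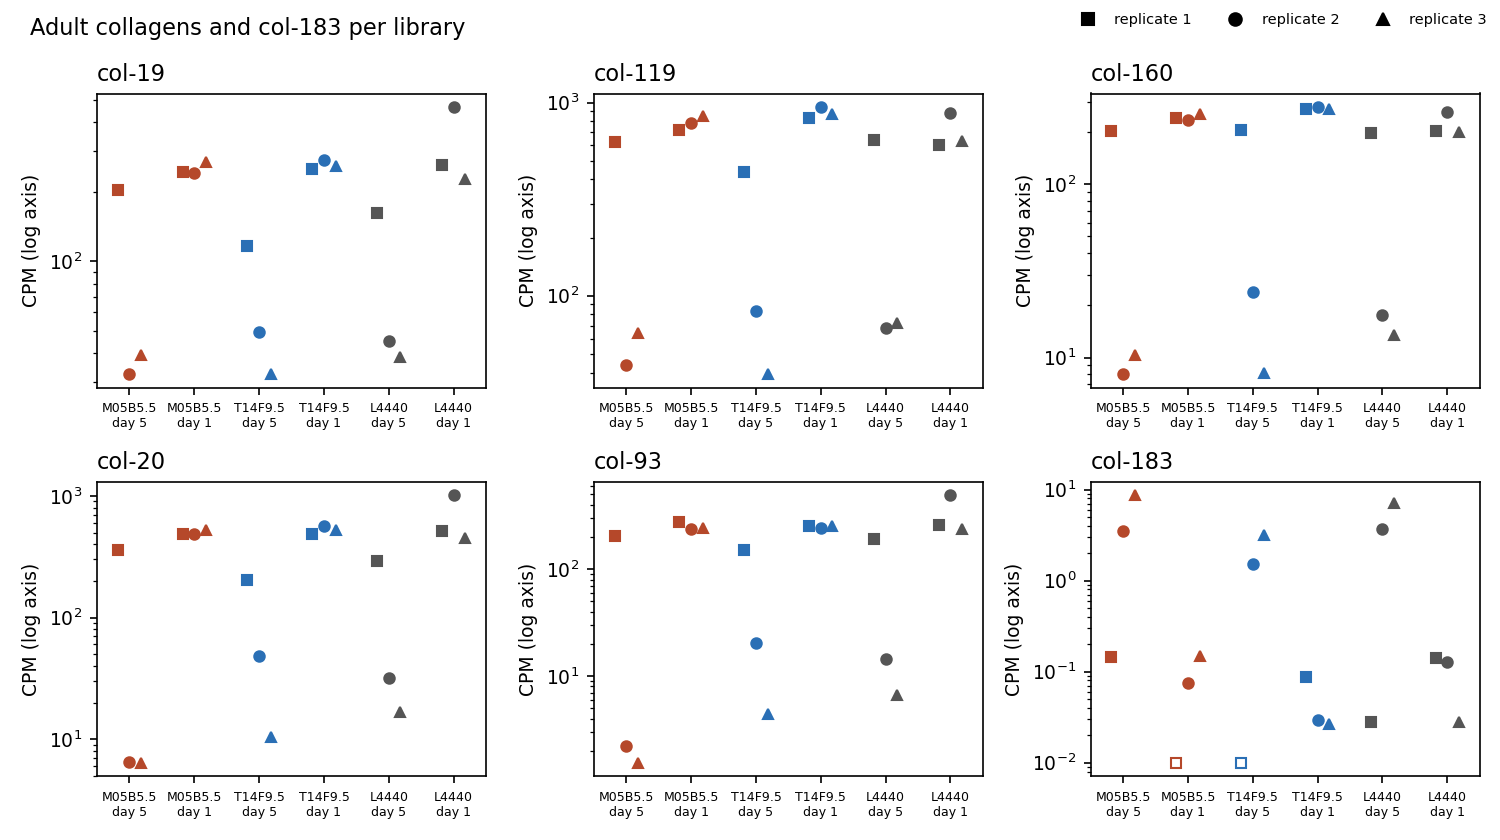
Level of 6 col- genes in CPM (vertical log axis) in each library by plasmid and age; squares, circles and triangles are replicates 1, 2 and 3, and open symbols are values of 0 drawn at 0.01 CPM. The 5 abundant members are low in the later day-5 libraries, lowest for col-20 and col-93 in M05B5.5, and col-183 is high in those libraries, at 1.53 to 8.64 CPM.

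Among members above 1 CPM the largest rise was that of col-183. This gene (chromosome X, 13466643 to 13467764 on the minus strand) had 5, 123 and 367 counts in M05B5.5 at day 5, against 0, 3 and 6 counts at day 1. It had 0, 54 and 124 counts in T14F9.5 at day 5, against 3, 1 and 1 counts at day 1, and 1, 149 and 272 counts in L4440 at day 5, against 5, 3 and 1 counts at day 1. The first day-5 libraries held as little as day 1, and all 6 later day-5 libraries held at least 54 counts. Over pooled counts, the later day-5 libraries held 81.9 times the day-1 level in M05B5.5 (95% exact interval 42.8 to 180), 50.3 times in T14F9.5 (21.1 to 157) and 55.8 times in L4440 (29.1 to 123), which cover counting error only. edgeR without the first libraries gave log2 fold changes of 6.25 ± 0.68, 5.53 ± 0.77 and 5.75 ± 0.68 (adjusted p = 5.08e-05, 0.000334 and 0.00012). With all libraries it did not pass (adjusted p = 0.303, 0.491 and 0.0525). Its neighbour col-184 starts 1690 bases away on the opposite strand and fell in all 3 plasmids.

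Only col-68 was also called higher in all 3 plasmids without the first libraries. It stood at 1.04, 2.15 and 2.26 CPM in M05B5.5 at day 5 and 0.985, 0.986 and 1.32 CPM at day 1, at 0.779, 1.5 and 2.07 CPM in T14F9.5 at day 5 and 0.962, 1 and 1.15 CPM at day 1, and at 0.98, 2.39 and 1.85 CPM in L4440 at day 5 and 0.969, 0.771 and 1.04 CPM at day 1. Its log2 fold changes were 1.01 ± 0.22, 0.78 ± 0.22 and 1.18 ± 0.22 (adjusted p = 0.00595, 0.0301 and 0.00257). The change was small beside that of col-183, but the later libraries of each plasmid lay above all of its day-1 libraries.

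The larval side was sparse. Of 11 collagens listed as larval, L4 or dauer, 10 were in the annotation and 6 were tested (col-10, col-12, col-17, col-38, col-49 and col-63), while col-2, col-13, col-36 and col-40 had too few counts. The 10 summed to 1.78 to 7.9 CPM in the libraries, against 71.9 to 1350 CPM for the 4 adult genes. Without the first day-5 libraries, none of the 6 rose and 2 fell in M05B5.5 (col-17 and col-10), 2 rose and none fell in T14F9.5 (col-12 and col-49), and 1 rose and none fell in L4440 (col-49). Of all genes on that fit, 9.78% rose and 10.6% fell in M05B5.5, 7.56% and 10.3% in T14F9.5, and 12.1% and 18% in L4440. Median log2 fold changes of the 6 larval genes were -1.16, 1.22 and 0.64. With all libraries none passed in any plasmid, and the medians were -0.78, 1.5 and 0.42. A move opposite to the adult genes was thus called for col-49 in T14F9.5 and L4440 and for col-12 in T14F9.5, and for no gene of the list in M05B5.5. The calls of col-12 and col-49 in T14F9.5 were lost with T14F9.5 day-5 replicate 2 also left out, and those of col-10 and col-17 in M05B5.5 with M05B5.5 day-1 replicate 1 also left out.

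col-49 had 0, 2 and 0 counts in M05B5.5 at day 5 and none in its 3 day-1 libraries. It had 0, 30 and 8 counts in T14F9.5 at day 5, against 3, 3 and 2 counts at day 1, and 1, 17 and 15 counts in L4440 at day 5, against 0, 1 and 0 counts at day 1. The pooled later day-5 level was 6.71 times the day-1 level in T14F9.5 (95% exact interval 3.08 to 16.6) and 38.2 times in L4440 (6.38 to 1550), and no fold can be given for M05B5.5. edgeR without the first libraries gave adjusted p = 0.0294 in T14F9.5 and 0.00884 in L4440. col-12, whose reads may be shared with its near-identical copy col-13, had 3, 25 and 14 counts in T14F9.5 at day 5, against 4, 2 and 2 counts at day 1 (log2 fold change 2.74 ± 0.63 without the first library, adjusted p = 0.0096). It had 1, 2 and 0 counts in M05B5.5 at day 5, against 2, 2 and 1 at day 1.

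col-17 was called lower with age in M05B5.5, and its day-1 values were uneven. It had 53, 0 and 3 counts in M05B5.5 at day 5, against 182, 21 and 5 counts at day 1, a log2 fold change of -5.48 ± 1.68 without the first day-5 library (adjusted p = 0.0371). With all libraries it was -1.83, and leaving out M05B5.5 day-1 replicate 1 in that fit turned it to 0.67. At 4.98 CPM that library stood 8.04-fold above the next day-1 library. It also held the highest day-1 level of col-41 (3.58 CPM, 5.79-fold above the next), col-73 (3.75 CPM, 5.53-fold) and col-90 (2.63 CPM, 4.45-fold), all chosen for these values. The body-shape collagens dpy-13 and rol-6, likewise chosen, stood there at 3.97 and 3.01 CPM, against 0.759 and 0.278 CPM in replicate 2 and 0.597 and 0.124 CPM in replicate 3. Genes of the larval moult that are not collagens summed to 195 CPM in that library, below the 254 and 310 CPM of the other M05B5.5 libraries of day 1. They summed to 98.1, 48.8 and 155 CPM in L4440 at day 1 and to 171, 97.4 and 244 CPM in T14F9.5 at day 1. Single genes of that list differed: in M05B5.5 at day 1 noah-1 stood at 59.8, 83.7 and 101 CPM, and qua-1 at 2.68, 0.556 and 0.772 CPM. What sets that library apart was not tested. col-10 had 20, 8 and 8 counts in M05B5.5 at day 5, against 35, 16 and 26 at day 1 (log2 fold change -1.67 ± 0.49 without the first library, adjusted p = 0.0294).

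col-38 and col-63 passed in no comparison of age. col-38 stood at 4.39, 1.29 and 1.58 CPM in M05B5.5 at day 5, against 1.5, 1.39 and 1.24 CPM at day 1. It stood at 3.5, 2.01 and 2.58 CPM in T14F9.5 at day 5, against 1.72, 2.24 and 1.23 CPM at day 1, and at 4.67, 1.72 and 2.88 CPM in L4440 at day 5, against 2.48, 3.81 and 2.03 CPM at day 1. In each plasmid the first day-5 library was the highest of its age. col-63 had at most 25 counts in a library.

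Besides col-183, col-68 and col-49, the genes called higher in both T14F9.5 and L4440 without the first libraries were col-14, col-77, col-81, col-88 and col-138. col-81 stood at 0.895, 1.49 and 2 CPM in M05B5.5 at day 5, against 1.29, 1.06 and 0.996 CPM at day 1. It stood at 0.695, 8.37 and 2.17 CPM in T14F9.5 at day 5, against 1.05, 1 and 0.83 CPM at day 1, and at 0.7, 6.03 and 3.9 CPM in L4440 at day 5, against 1.17, 2.19 and 0.62 CPM at day 1. The log2 fold changes were 0.65 ± 0.53 in M05B5.5 (adjusted p = 0.449), 2.45 ± 0.52 in T14F9.5 (adjusted p = 0.00555) and 1.95 ± 0.51 in L4440 (adjusted p = 0.0146). Another 8 were called higher in T14F9.5 and not in L4440, namely col-12, col-45, col-97, col-109, col-111, col-117, col-120 and col-161. The matching count over all genes was not made. Of the genes called higher here, col-88 and col-161 were tested only without the first libraries. T14F9.5 day-5 replicate 2 weighed on these values: it held the highest level of 33 of the 97 col- genes tested, 34%, against 6.16% of all genes tested. In M05B5.5 day-5 replicate 2 larval moult genes that are not collagens summed to 222 CPM and the collagens named for body shape to 101 CPM. That M05B5.5 library held the highest level of 0 of the 97 col- genes tested, against 5.13% of all genes tested. Whether the col- levels go with the moult sums was not tested. At day 5 in T14F9.5 the moult genes summed to 198 CPM in replicate 2, against 104 and 73.8 CPM in replicates 1 and 3. The collagens named for body shape summed to 129 CPM in T14F9.5 day-5 replicate 2, against 36.4 and 37.3 CPM in replicates 1 and 3. With that library left out too, which leaves 1 library in its group that is assumed to vary like the others, 2 col- genes were called higher with age in T14F9.5 in place of 16, col-183 and col-68 (4.26% of all genes), and 36 lower (6.92%). The median log2 fold change in T14F9.5 was then -0.28 in place of 0.43.

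The plasmids were then compared at each age. With all 18 libraries edgeR called no col- gene and no gene at all in M05B5.5 or T14F9.5 against L4440 at either age, 0% of those tested, nor in the test of whether age acted differently with a plasmid. At an unadjusted p under 0.05 there were 12 col- genes for M05B5.5 at day 1 (31.8% of all genes), 5 for T14F9.5 at day 1 (22.8%), 8 for M05B5.5 at day 5 (1.36%) and 2 for T14F9.5 at day 5 (0.631%). The tests of age by plasmid gave 6 col- genes each at that level (13.1% of all genes for M05B5.5 and 5.19% for T14F9.5). DESeq2 called 1 col- gene, col-53, in M05B5.5 against L4440 at day 1 (16.2% of all genes), and none in the other 5 (4.72% of all genes in T14F9.5 at day 1, 0.0543% in M05B5.5 at day 5, 0% in the rest).

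At day 1 the genes of lowest p in M05B5.5 were col-53, col-187 and col-126 (lower) and col-41, col-79 and col-99 (higher), none of which passed in edgeR. col-53 averaged 0.838 ± 0.131 CPM in M05B5.5 and 1.94 ± 0.416 CPM in L4440 (SD, n = 3 each), a log2 fold change of -1.21 ± 0.29 (edgeR adjusted p = 0.0709, DESeq2 adjusted p = 0.00946). It averaged 0.897 ± 0.197 CPM in T14F9.5, a log2 fold change of -1.11 ± 0.29 against the same controls (adjusted p = 0.146). All 6 RNAi libraries of day 1 lay below the 3 L4440 libraries, and the exons of col-53 overlap those of F55F8.2. Both comparisons share the L4440 libraries. Without the first day-5 libraries in the fit DESeq2 called 6 col- genes in M05B5.5 at day 1 (20.3% of all genes) and 1, col-53, in T14F9.5 (6.03%). In T14F9.5 col-187 and col-71 (lower) and col-79, col-84 and col-158 (higher) followed, with adjusted p-values between 0.146 and 0.314.

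At day 5 the genes of lowest p in M05B5.5 were col-139, col-129 and col-92 (lower) and col-113, col-99 and col-43 (higher), all with an adjusted p of 1. Those lower stand out in the later libraries. col-129 had 59, 10 and 25 counts in M05B5.5 at day 5, against 60, 295 and 144 counts in L4440 of that age. col-139 had 55, 13 and 38 counts in M05B5.5, against 67, 269 and 151 in L4440, and col-92 had 9, 1 and 0 counts, against 9, 36 and 16. The first libraries of both plasmids held similar counts, and the later ones did not overlap. At day 5 the genes of lowest p in T14F9.5 were col-10, col-48 and col-145 (higher) and col-76, col-158 and col-183 (lower), also with an adjusted p of 1.

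Without the first day-5 libraries, M05B5.5 against L4440 at day 5 gave 28 col- genes of 107 at an unadjusted p under 0.05, 26 of them lower, against 4.82% of all genes. None passed the adjusted threshold in edgeR (lowest adjusted p = 0.121, col-92; 3 passed without T14F9.5 day-5 replicate 2 in the fit), where 0.0201% of all genes passed, and DESeq2 called 8, all lower, or 7.48% of those tested against 0.341% of all genes: col-129, col-139, col-77, col-93, col-133, col-144, col-94 and col-39. By DESeq2 col-129 changed by -3.64 ± 0.62 on the log2 scale (adjusted p = 1.53e-05) and col-93 by -2.48 ± 0.57 (adjusted p = 0.00766). T14F9.5 against L4440 gave 7 at an unadjusted p under 0.05 (2.47% of all genes) and no call by either tool, where 0.00669% of all genes passed in edgeR and 0.0201% in DESeq2. These values compare 2 libraries with 2. The test of age by M05B5.5 gave 20 at an unadjusted p under 0.05 without the first libraries (8.44% of all genes), none called by edgeR, and 2 called by DESeq2, col-129 (-3.33 ± 0.78, adjusted p = 0.018) and col-94 (-3.4 ± 0.82, adjusted p = 0.0242), against 0.161% of all genes.

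The genes called lower with age in M05B5.5 and in neither other plasmid were col-10, col-17, col-92, col-125, col-129 and col-144. The matching count over all genes was not made. col-144 had 36, 2 and 3 counts in M05B5.5 at day 5, against 65, 48 and 69 at day 1, and 58, 31 and 20 counts in L4440 at day 5, against 52, 30 and 60 at day 1. Its log2 fold change without the first libraries was -4.53 ± 0.67 in M05B5.5 (adjusted p = 0.000439), -0.36 ± 0.43 in T14F9.5 and -1.21 ± 0.47 in L4440, and it was called lower in T14F9.5 too once T14F9.5 day-5 replicate 2 was left out. The difference between the age changes of M05B5.5 and L4440 was -3.32 ± 0.85 and did not pass in edgeR (adjusted p = 0.51). col-92 was called lower in M05B5.5 (-4.58 ± 0.97, adjusted p = 0.00523) and higher in L4440 (2.13 ± 0.58, adjusted p = 0.0174) on that fit. Of these 6 genes, DESeq2 called the difference in age change from L4440 for col-129 alone, and edgeR for none. At day 5 itself DESeq2 without the first libraries called col-129 and col-144 lower in M05B5.5 than in L4440. For col-144 that day-5 difference was -3.32 ± 0.83 (DESeq2 adjusted p = 0.0248).

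**Figure D4:**
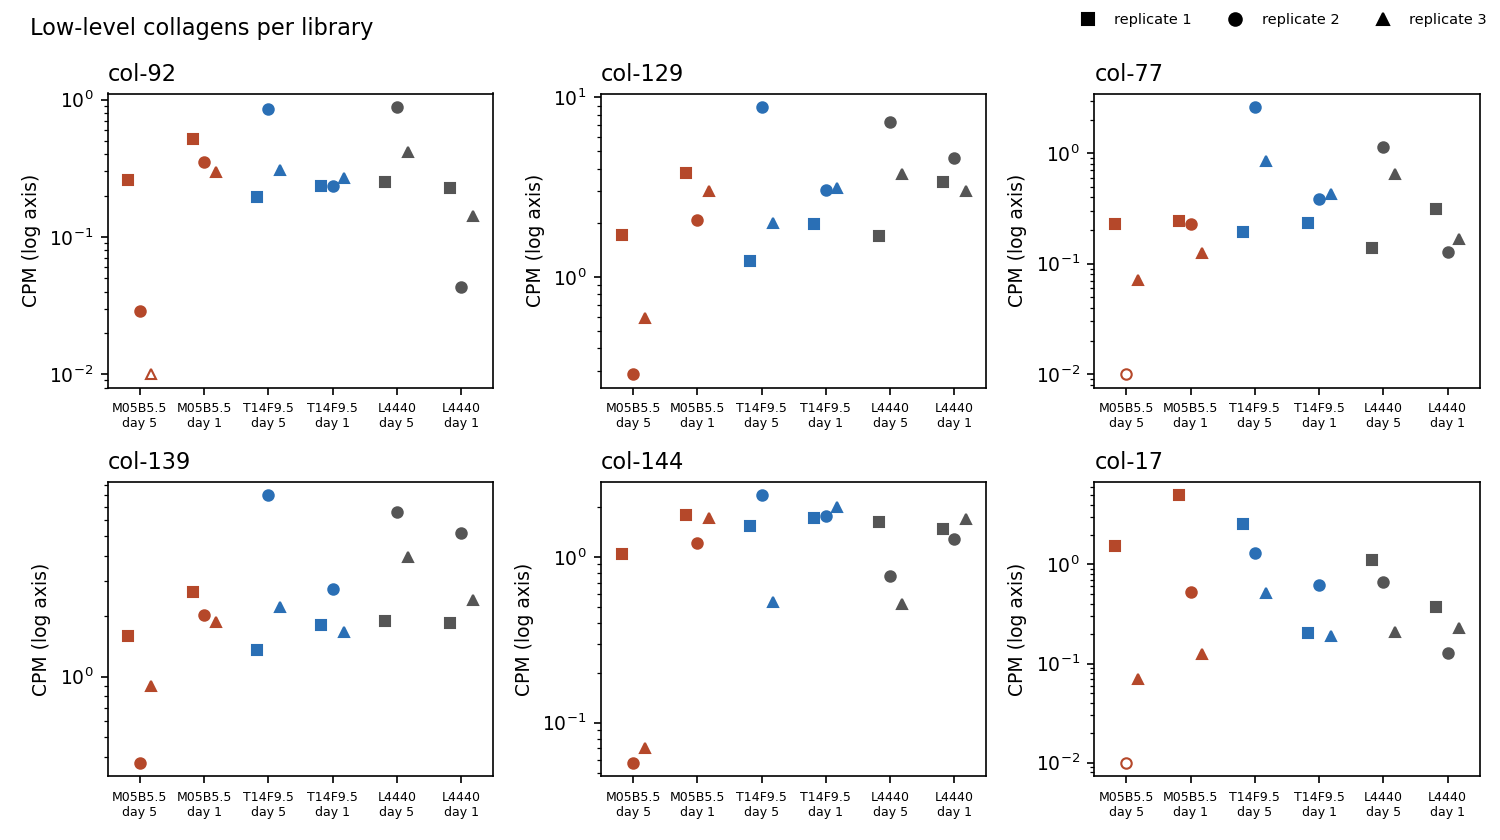
Level of 6 low-level col- genes in CPM (vertical log axis) in each library by plasmid and age; squares, circles and triangles are replicates 1, 2 and 3, and open symbols are values of 0 drawn at 0.01 CPM. For col-92, col-129, col-77, col-139 and col-144 the later M05B5.5 libraries of day 5 are the lowest of the 18, and for col-17 M05B5.5 day-1 replicate 1 is the highest at 4.98 CPM.

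Neighbouring members did not always move together. Among the 107 col- genes tested without the first libraries, there were 16 pairs next to each other and within 3000 bases. Untested members and pairs with a tested member between them were not counted. Of the 16 pairs, 5 were called in the same direction in all 3 plasmids on that fit. These were col-93 with col-94, col-95 with col-96, col-149 with col-150, col-159 with col-160 and col-178 with col-179, all lower. The annotated spans of col-159 and col-160 overlap on the same strand, so their counts may not be separate. col-20 lies 2093 bases from col-17 and 1306 bases from col-73 on chromosome II, on the same strand. In L4440 col-20 changed by -4.76, while col-17 and col-73 stood at 0.8 and 2.81 and were not called. col-92 lies 1298 bases from col-93 on chromosome III, and in L4440 it was called higher where col-93 was called lower.

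**Figure D5:**
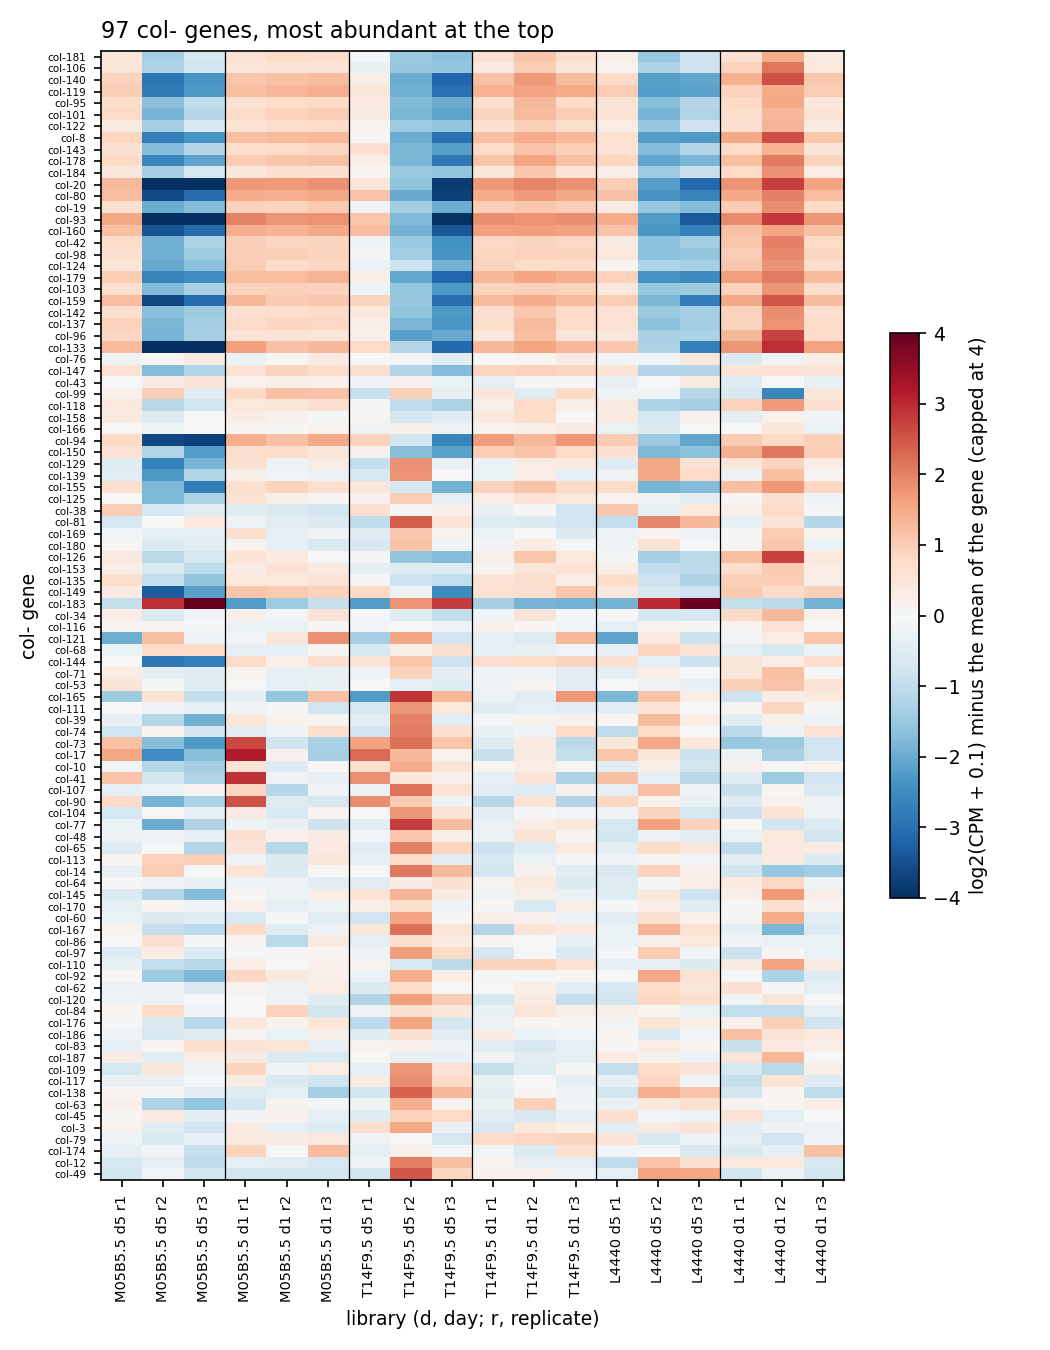
Level of the 97 col- genes tested as log2(CPM + 0.1) minus the mean of each gene over the 18 libraries (colour, capped at 4), with genes in rows from most to least abundant and libraries in columns. The upper rows are low in the later day-5 libraries of each plasmid, and the lower rows are high in T14F9.5 day-5 replicate 2.

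Collagens of the cuticle named for body shape, such as dpy-13, rol-6 and bli-1, were taken beside the col- genes. Of 20 listed, 19 were in the annotation and all 19 were tested. Without the first day-5 libraries none rose in any plasmid, and 7 fell in M05B5.5, none in T14F9.5 and 1 in L4440, dpy-17, against the same background of 20.4%, 17.9% and 30.1%. The 7 were bli-1, dpy-5, dpy-8, dpy-9, dpy-13, lon-3 and rol-8, and all but bli-1 had their highest value of all 18 libraries in M05B5.5 day-1 replicate 1, as dpy-5 with 2.93 CPM against 0.278 and 0.149 CPM in the other day-1 libraries of M05B5.5. With that library left out too, 1 of 17 tested fell in M05B5.5 and the median was -1.1. dpy-17 stood at 10.5, 21.8 and 10.7 CPM in M05B5.5 at day 5, against 21.5, 28.8 and 40.6 CPM at day 1, and at 8.76, 12 and 6.55 CPM in L4440 at day 5, against 21.6, 34.2 and 33.1 CPM at day 1. Its log2 fold change was -0.9 in M05B5.5 (adjusted p = 0.259) and -1.67 in L4440 (adjusted p = 0.0341). With only the first day-5 libraries left out, the median of the 19 was -2.16 in M05B5.5, 0.11 in T14F9.5 and -0.5 in L4440. The basement membrane collagens emb-9, let-2 and cle-1, made for another matrix, were set against the same background. In M05B5.5 cle-1 was called higher and emb-9 lower, in T14F9.5 emb-9 lower, and in L4440 none. let-2 did not pass in edgeR, at -1.04 in M05B5.5 (adjusted p = 0.0814), -1.21 in T14F9.5 (adjusted p = 0.0522) and 0.19 in L4440 (adjusted p = 0.705).

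Among 13 tested genes of collagen processing and cross-linking, 2 rose and 3 fell in M05B5.5, none rose and 3 fell in T14F9.5, and 1 rose and 3 fell in L4440, without the first libraries, against 20.4%, 17.9% and 30.1% of all genes called. The peroxidase gene mlt-7, whose product cross-links cuticle proteins, fell in all 3, by 1.15, 1.25 and 1.32 on the log2 scale (adjusted p = 0.00112, 0.000707 and 0.0005). let-268, a lysyl hydroxylase gene, fell by 1.02, 1.49 and 0.79 (adjusted p = 0.00656, 0.000662 and 0.0209). mlt-7 stood at 22.2, 10.3 and 10.7 CPM in M05B5.5 at day 5, against 20, 24.7 and 25.2 CPM at day 1, and at 21, 6.13 and 8.27 CPM in L4440 at day 5, against 19.8, 14.7 and 19.4 CPM at day 1. Of 18 regulators of collagen genes, elt-3, a GATA factor of the epidermis, was called lower in all 3 plasmids, by 0.8 in M05B5.5, 0.97 in T14F9.5 and 0.58 in L4440 (adjusted p = 0.0133, 0.0054 and 0.0457). Among the others 1 rose in M05B5.5 and 2 in L4440. With all libraries, 1 shape-named collagen fell and 1 processing gene rose in L4440, and no other gene of these lists passed in any plasmid.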

How the data were processed

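TruSeq v2 libraries of total RNA were sequenced for 18 samples, per the labels' protocols. The submitters' processing notes name bcl2fastq 1.8.4, STAR 2.4.1d, featureCounts 1.4.6-p4 and the build WBcel235. Strand setting, annotation release and treatment of reads with several positions are not given in the sources used here, so overlapping genes and near-identical copies are uncertain. The deposited table holds raw counts per gene. The authors' RPKM table was not used. Of the 46748 identifiers, 46449 were matched to a name in Ensembl release 115.

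Counts of all 18 libraries were fitted with edgeR 4.0.16 (R 4.3.3): a term per group, filterByExpr (minimum count 10), TMM factors, robust quasi-likelihood tests and Benjamini-Hochberg adjustment over all genes at 0.05. CPM are TMM-scaled, and errors of a log2 fold change are its size over the square root of F. Steps were tested on simulated data. Alternatives were RLE factors, DESeq2 1.42.0, other filters, lane, fewer groups, a gene length offset and leaving out libraries. Figures used matplotlib 3.10.9 in Python 3.11.15.

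The members, lists and libraries left out were chosen with earlier results of these data known. Named are the adult and larval lists, the 10 members highest per length, and in each comparison the called members that changed most, if they averaged 5 CPM or more and their groups did not overlap (up to 8 each way with age, 4 otherwise), or the 3 of lowest p each way where none passed. From each other list up to 4 genes could be named. Other members are named after their values were seen.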

Additional observations from a re-analysis of the deposited data

Results flagged for a closer look

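col-92 was marked because its values moved in opposite directions with age in different groups. Every M05B5.5 library of day 5 (9, 1 and 0 counts) lay below every M05B5.5 library of day 1 (19, 14 and 12 counts), and every L4440 library of day 5 (9, 36 and 16 counts) lay above every one of day 1 (8, 1 and 5 counts). The difference between the 2 changes was -3.87 ± 1.17 on the log2 scale (SE) and did not pass in edgeR's quasi-likelihood test of it (adjusted p = 0.38). Without the first day-5 libraries it was -6.71 ± 1.13, the lowest p of any col- gene in that test, and did not pass either (adjusted p = 0.126). The counts of col-92 were at most 36 in any library. col-93, 1298 bases away and far more abundant, fell in both plasmids.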

How the results depend on the processing

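No paired analysis was possible because the labels give no replicate numbers that the groups share. The 8 col- genes called with age in L4440 became 20 with DESeq2, 1 with no filter, 0 with only the groups compared, 0 without T14F9.5 day-1 replicate 2 and L4440 day-1 replicate 1, which share index and lane, 0 with the gene length offset and 49 without the first day-5 libraries. Leaving out 1 library gave 0 to 32 there, and 0 to 17 with age in M05B5.5. For ranges on leaving out 1 library, here and below, the shares of all genes called are not given. Without the first day-5 libraries the count was 43 in M05B5.5 and 54 in T14F9.5. Chosen after seeing the data, DESeq2 without these libraries gave 51 in L4440, 48 in M05B5.5 and 56 in T14F9.5. Leaving out L4440 day-1 replicate 2 as well gave 49, 51 and 60, and the length offset without these libraries gave 52, 49 and 61. Calls over all genes moved as well. In the same order they were 4548, 4699 and 4166 of 14884 without L4440 day-1 replicate 2, and 4722, 4124 and 3544 of 14842 with the length offset. They were 4495, 3049 and 2676 of 14952 without only the first day-5 libraries. Leaving out M05B5.5 day-1 replicate 1 with them gave 48 in L4440, 40 in M05B5.5 and 55 in T14F9.5, and T14F9.5 day-5 replicate 2 with them gave 53, 46 and 38. The last setting also gave 3 for M05B5.5 against L4440 at day 5. Against L4440 at day 1 the count of 0 became 1 for M05B5.5 with DESeq2 and 6 with DESeq2 without the first libraries. For T14F9.5 it became 1 with DESeq2 without the first libraries. Leaving out 1 library gave 0 to 4 for M05B5.5 and for T14F9.5, with 4 reached without L4440 day-1 replicate 3. At day 5 DESeq2 without the first libraries gave 8 for M05B5.5. The test of age by M05B5.5 gave 0 to 1 on leaving out 1 library and 2 with DESeq2 without the first ones. With lane in the model, age in L4440, age in T14F9.5, M05B5.5 against L4440 at day 1 and age by M05B5.5 could not be estimated.

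Signs turned for genes that had not passed. With age in L4440, leaving out 1 library gave -0.14 to 0.63 for col-62, -0.14 to 1.2 for col-12, -0.26 to 0.47 for col-38 and -0.06 to 0.49 for col-63. col-38 stood at -0.25 without the first day-5 libraries and at -0.23 with DESeq2 without them. In M05B5.5 leaving out 1 library gave -1.48 to 0.02 for col-12, -5.49 to 0.67 for col-17 (positive without day-1 replicate 1) and 0 to 3.22 for col-49, and lane turned col-113 to -0.41 and col-49 to -1.04. In T14F9.5 leaving out 1 library gave -0.29 to 0.55 for col-62 and -0.36 to 1.23 for col-63. col-63 stood at -0.16 without the first day-5 libraries and T14F9.5 day-5 replicate 2. The cause was not tested.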
